A study of Mus musculus with 9 samples.

Results

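The regions described here are places in the mouse genome where the transcription factors Stat5a or Stat5b had a deposited peak in Th2-differentiating cells at 13 h and again at the end of 2 rounds, but none at 8 h. They were found by joining the 6 deposited peak lists (build mm8, mitochondrial chromosome left out) wherever peaks overlapped by 1 bp or more, and by keeping the joined regions with a peak of either antibody at each of the later stages and of neither antibody at 8 h. Of 43766 joined regions, 7324 (16.7%) met this rule. The study used chromatin immunoprecipitation followed by sequencing of the pulled-down DNA (ChIP-seq). Mouse CD4+ T cells were sampled under Th2 differentiation at 3 stages (8 h, 13 h and the end of 2 rounds), and DNA of each stage was precipitated with an antibody to Stat5a, an antibody to Stat5b or control IgG. That gives 9 libraries with 1 library per antibody and stage, and all of them come from cells under Th2 differentiation, so no undifferentiated cells are included. Genotype, strain, age of the mice and culture conditions are not spelled out in the labels, which point to a paper that was not used here. The regions were chosen by the deposited peaks of these same Stat5a and Stat5b libraries, so their levels at the 3 stages are a description and carry no test.

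Stat5a and Stat5b are closely related members of the STAT family. Cytokine receptors such as that of IL-2 activate Janus kinases, these phosphorylate Stat5 on a tyrosine, and the phosphorylated proteins pair up, enter the nucleus and bind DNA. In CD4+ T cells this pathway is known for its part in proliferation, in survival and in the priming of Th2 cells, the helper cells that make IL-4, IL-5 and IL-13. The title of the series names the induction of the IL-4 receptor alpha chain by IL-2 as a step of this priming. The regions described here are those first listed at the later of the early stages and listed again in cells that had been differentiated repeatedly.

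Mapped reads outside the mitochondrial chromosome numbered between 3128114 (Stat5a at 8 h) and 9031579 (Stat5b at 13 h) per library. Levels are given as RPM, the reads of a region per 1000000 of these reads, or as RPM per kb where regions of different width are compared. With 1 library per group there is no replicate check, each comparison is of libraries and not of conditions, and every interval is a 95% exact conditional interval that covers counting error only. For a call of higher, the whole interval of the ratio had to exceed 2, and for a call of lower it had to stay under 0.5. A single read start at position 60832754 of chromosome 16 held 2.04% of all reads of Stat5b at 8 h, 1.26% of IgG at 8 h and 1.08% of IgG after 2 rounds, and this lowers the RPM of every other place in those libraries by the same shares. Among the regions described, 6 had reads heaped at a single start in some library, and medians of levels are over the other 7318. Regions are named by mm8 position, since gene positions and sequence of that build were not used here.

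Most of these regions rested on Stat5b peaks. At 13 h, 3666 (50.1%) had a Stat5b peak alone, 2106 (28.8%) had peaks of both antibodies and 1552 (21.2%) had a Stat5a peak alone. After 2 rounds the Stat5b share was larger, with 5182 regions (70.8%) holding a Stat5b peak alone, 2057 (28.1%) both and 85 (1.16%) Stat5a alone. The most frequent pattern was a Stat5b peak alone at both stages, in 2788 regions (38.1%), and 878 (12.0%) had peaks of both antibodies at both stages. The same antibody had a peak at both later stages in 6107 regions (83.4%). In the other 1217 the antibody switched between the stages, nearly always from a Stat5a peak alone at 13 h to a Stat5b peak alone after 2 rounds (1178 regions), while 39 went the other way. The deposited lists differ in length, with 14300 Stat5a and 13266 Stat5b peaks at 13 h and 9789 Stat5a and 33692 Stat5b peaks after 2 rounds, and the part of list length in these patterns was not tested.

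**Figure D1:**
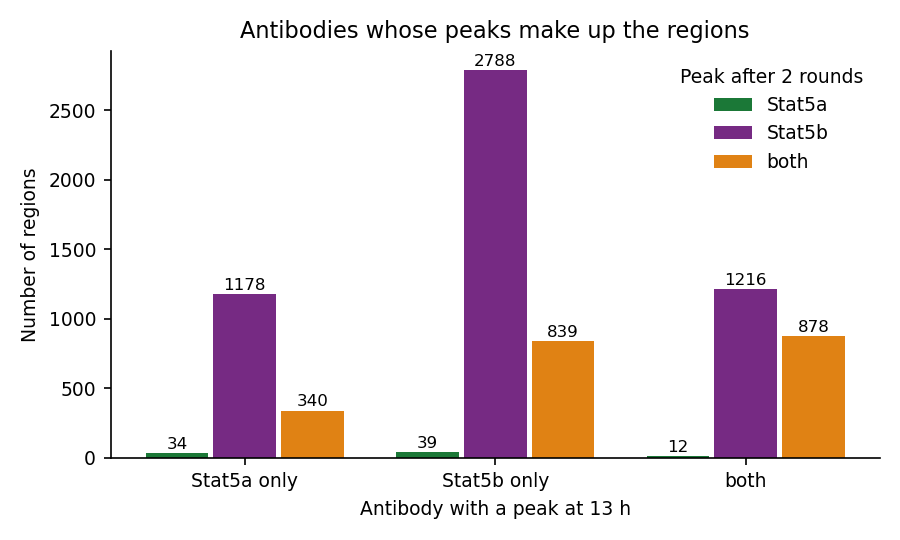
Number of regions (y axis) by the antibody with a peak at 13 h (groups on the x axis) and after 2 rounds (bar colour). The tallest bar is Stat5b alone at both stages, 2788 regions, and the Stat5a-only bars after 2 rounds hold 34, 39 and 12.

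The regions were wide compared with those seen at a single stage. Their median width was 708 bp (quartiles 563 and 920 bp), and together they covered 5.70 Mb. Regions with a peak at all 3 stages had a median of 841 bp, those with a peak at 13 h only 231 bp and those after 2 rounds only 504 bp. A joined region is at least as wide as its widest peak, so regions of several peaks are wider by construction. The deposited 13 h and 2-round peaks overlapped each other directly by a median of 324 bp (quartiles 260 and 407 bp), and in 57 regions by less than 50 bp.

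Stat5b had a higher median at each later stage, while Stat5a was nearly level. The median region held 1.02 RPM of Stat5b at 8 h, 2.66 RPM at 13 h and 5.62 RPM after 2 rounds. For Stat5a the medians were 1.60, 1.93 and 2.11 RPM, and for IgG they were 0.641, 0.532 and 0.864. At 8 h the median was thus higher for Stat5a than for Stat5b, and at the later stages the order was the opposite. The Stat5b levels of the 3 stages stood in ascending order in 6454 regions (88.1%) and were highest after 2 rounds in 6866 (93.7%). The rule favours this order, and the order was not counted over all joined regions. Stat5b RPM was higher after 2 rounds than at 8 h in 99.6% of the regions described. That share was 97.0% in regions of all 3 stages, 98.4% in those after 2 rounds only and 49.0% in those at 13 h only. Stat5a was highest after 2 rounds in 3420 regions (46.7%), at 13 h in 2279 (31.1%) and at 8 h in 1625 (22.2%). In the last of these classes the highest Stat5a level fell on the stage at which no peak was listed. IgG, by the same count, was highest at 8 h in 2384 and after 2 rounds in 3368. At 8 h the median region held 5 Stat5a reads and 7 Stat5b reads, so a single read can set such an order.

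**Figure D2:**
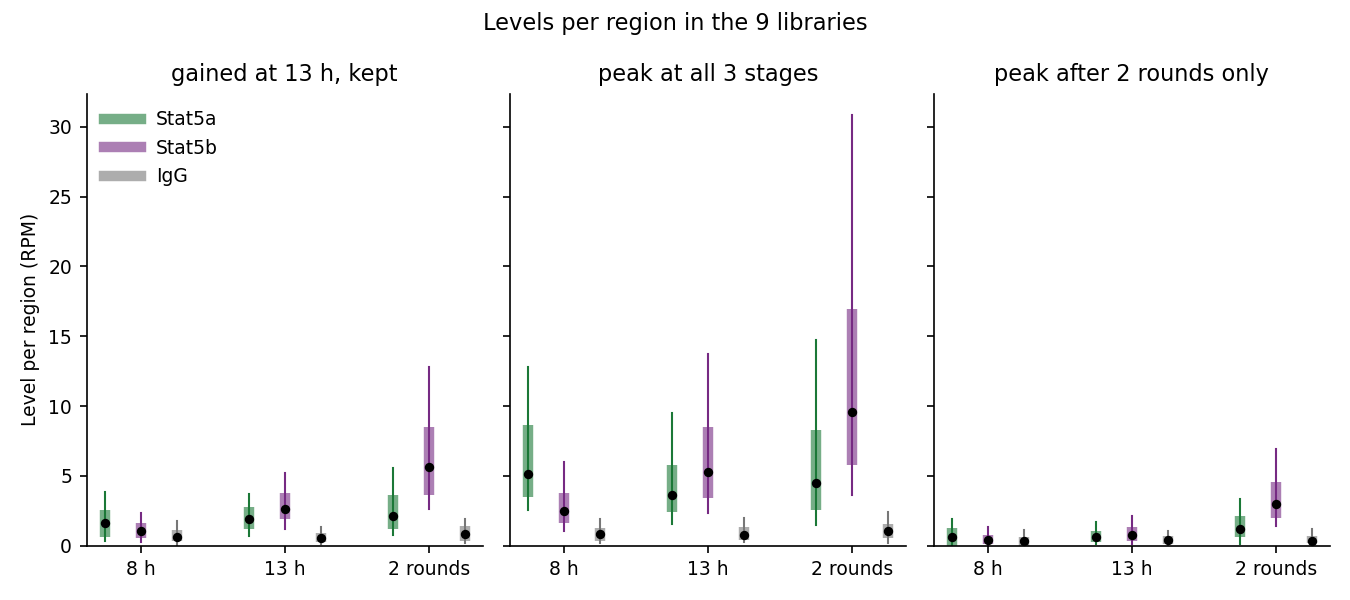
Level per region in RPM (y axis) at the 3 stages (x axis) for regions gained at 13 h and kept, regions with a peak at all 3 stages and regions with a peak after 2 rounds only. Black points are medians over regions, thick bars span the quartiles and thin lines the 10th to 90th percentile of regions, which is spread between regions and not between replicates. In the first panel the Stat5b median goes from 1.02 to 5.62 RPM and the Stat5a median from 1.60 to 2.11 RPM.

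Regions with peaks in more lists had higher levels, as the way of choosing them implies. In the 878 regions of both antibodies at both stages, median Stat5b stood at 1.17, 3.54 and 10.1 RPM over the 3 stages and median Stat5a at 1.92, 2.77 and 4.97. In the 2788 regions of Stat5b alone the medians were 1.02, 2.77 and 4.97 RPM for Stat5b and 1.60, 1.32 and 1.66 for Stat5a. IgG after 2 rounds stood at 0.692 and 0.864 RPM in these classes, so it was not higher where the ChIP levels were higher. The 1178 regions that went from a Stat5a to a Stat5b peak had a median Stat5b level of 0.874, 1.55 and 4.31 RPM, and of Stat5a 1.28, 2.17 and 1.51.

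The absence of a peak at 8 h did not mean an absence of reads. Density within the regions at 8 h was 2.34 RPM per kb for Stat5a and 1.58 for Stat5b, against 1.02 for IgG. Relative to flanks from 2 to 5 kb on either side (other joined regions removed), this was 4.40 times for Stat5a, 3.37 times for Stat5b and 2.29 times for IgG, so the IgG library was also denser there than beside them. At 13 h the regions stood at 4.91 times their flanks for Stat5a, 6.49 for Stat5b and 1.71 for IgG. After 2 rounds the values were 6.05, 13.1 and 2.13. Regions with a peak at all 3 stages stood at 12.4 times their flanks for Stat5a at 8 h and 7.21 for Stat5b, and regions seen only after 2 rounds at 3.04 and 2.33. The regions gained at 13 h thus lay between these groups at 8 h, a place that their choice favours, and IgG at 8 h followed the same order, at 3.43 times the flanks in regions of all 3 stages, 2.29 in the regions described and 1.83 in those seen only after 2 rounds.

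**Figure D3:**
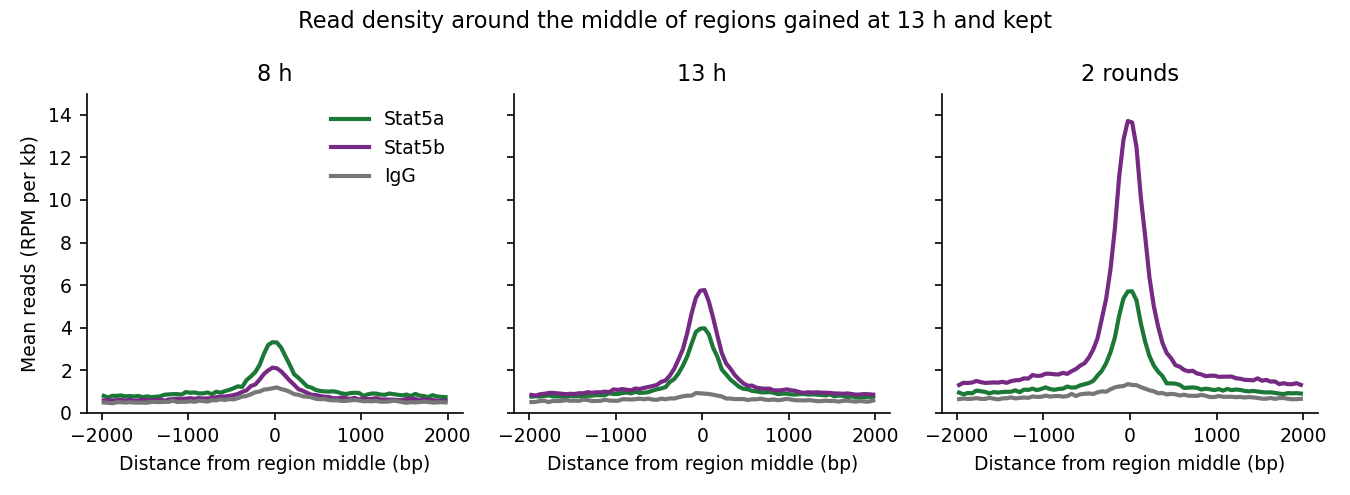
Mean read density in RPM per kb (y axis) against the distance of the read start from the middle of the region in bp (x axis), at 8 h, 13 h and after 2 rounds, over 7318 regions. At 8 h Stat5a reaches 3.22 and Stat5b 2.04 RPM per kb in the central 200 bp against 1.14 for IgG, and after 2 rounds they reach 5.52 and 13.2 against 1.30.

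Compared with the IgG library of the same stage, single regions passed the call seldom at 8 h and often after 2 rounds. At 8 h, 538 of the 7324 regions (7.35%) were called higher for Stat5a, against 11.2% of all joined regions, and 121 (1.65%) for Stat5b against 2.92%. At 13 h, 1409 (19.2%) were called for Stat5a against 13.9%, and 2865 (39.1%) for Stat5b against 17.5%. After 2 rounds the counts were 1410 (19.3%) for Stat5a against 13.9%, and 5247 (71.6%) for Stat5b against 46.7%. The rule that chose the regions used these same libraries, so nothing is read from the distance between the paired shares. When repeated reads of one start and strand were counted as 1, 46 regions were above IgG for Stat5a and 16 for Stat5b at 8 h (5.12% and 1.32% of all). The counts were then 389 and 1354 at 13 h (3.74% and 9.06% of all), and 721 and 4104 after 2 rounds (6.51% and 32.1% of all).

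The 5 regions named here had the most reads above IgG at 8 h although no peak was listed for that stage, and all of them were wide. The widest, at chr12:81031608-81034916 (3309 bp), held 12.8, 12.6 and 11.7 RPM of Stat5a and 7.43, 17.6 and 35.9 RPM of Stat5b at 8 h, 13 h and 2 rounds, with IgG at 4.65, 3.72 and 4.67. Stat5a thus stood at much the same level in this region over the whole course, while the Stat5b values were ordered by stage. Stat5a at 8 h was 2.75 times IgG there (1.66 to 4.60) and Stat5b 1.60 times (0.994 to 2.62), so neither passed the call. At chr17:52943031-52944958, Stat5a stood at 9.59, 6.86 and 13.9 RPM, Stat5b at 4.52, 9.41 and 25.4, and IgG at 2.08, 3.59 and 2.59. Stat5a at 8 h was 4.60 times IgG (2.33 to 9.61), which passed. At chr5:31973738-31975421, Stat5a stood at 7.35, 4.82 and 5.12 RPM, Stat5b at 4.23, 5.09 and 19.1, and IgG at 1.12, 1.60 and 2.25. At 8 h Stat5a there was 6.55 times IgG (2.72 to 18.1), and the Stat5a level was highest at 8 h. The other 2 lay at chr7:15557893-15560551 and chr4:149412482-149414413. The second of these was the one of the 5 with the steepest early step, with Stat5b at 4.08 RPM at 8 h and 10.3 at 13 h.

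From 8 h to 13 h, the calls were nearly all Stat5b rises. Stat5b was higher in 885 of the 7324 regions (12.1%) and lower in 0, against 5.27% and 0.304% of all joined regions. Stat5a was higher in 63 (0.860%) and lower in 34 (0.464%), against 0.286% and 2.15% of all. IgG, compared in the same way, was higher in 15 (0.205%) and lower in 76 (1.04%), against 0.254% and 0.462%. Both antibodies were called higher in 8 regions, and Stat5b was higher while Stat5a was lower in 3. Such joint calls were not counted over all joined regions, so nothing is read from their number. The rule required a peak at 13 h and none at 8 h, so a rise was built into the choice of regions and the counts describe its size. Over regions with reads in both libraries, the median ratio was 2.50 for Stat5b and 1.13 for Stat5a, while over all joined regions it was 1.90 and 0.869. Scaled to that median of all regions, Stat5b was higher in 66 regions and lower in 12 (0.35% and 1.66% of all), and Stat5a was higher in 119 and lower in 17 (0.635% and 1.63%). With repeated starts counted as 1, Stat5b was higher in 207 and lower in 0 (1.13% and 0.00685% of all), and Stat5a was higher in 2 and lower in 0 (0.00685% and 0.555%).

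**Figure D4:**
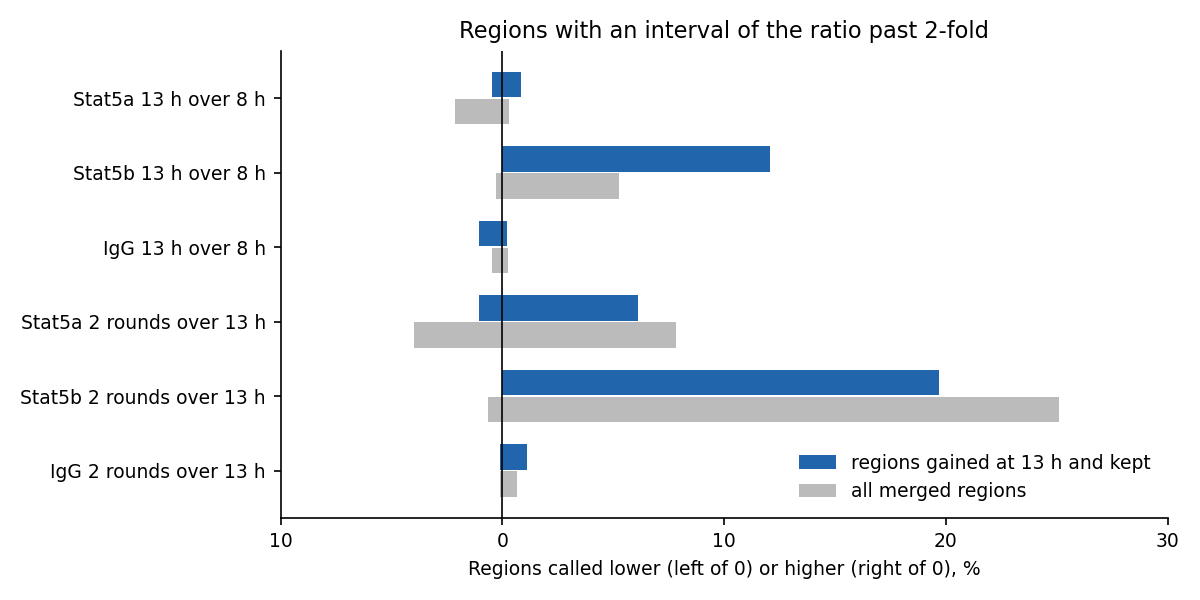
Share of regions called higher (right of 0) or lower (left of 0), in percent (x axis), for each library pair (y axis), in regions gained at 13 h and kept and in all joined regions. Stat5b from 8 h to 13 h stands at 12.1% higher against 5.27% of all, and from 13 h to 2 rounds at 19.7% against 25.1%.

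At the depth of these libraries, a Stat5a call at this step needed more reads than a Stat5b call. A region with 5 Stat5a reads at 8 h, the median, needed 66 reads at 13 h to pass, which 14 of the regions had. A region with 7 Stat5b reads at 8 h, the median, needed 42 at 13 h, which 1074 had. Where Stat5a had 0 reads at 8 h, as in 549 of the 7318 regions, 22 reads at 13 h were needed. The Stat5a library of 13 h also mixes 24 bp and 25 bp reads (38.0% are 24 bp long). So do IgG at 13 h (49.7%), Stat5a after 2 rounds (54.5%) and IgG after 2 rounds (77.3%). Only in Stat5a at 13 h did many 25 bp starts (14.3%) have a 24 bp start 1 bp further on. Whether these are repeats of the same reads is not known, and repeats would make its intervals too narrow. With the 25 bp reads alone 110 regions were higher and 11 lower (0.462% and 1.08% of all).

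Of the regions in which Stat5b rose at 13 h, 123 had at least 30 reads at 13 h and passed also on distinct starts, and the largest of these rises came in regions with and without a Stat5a peak. At chr9:57821265-57821910, where both antibodies had a peak at both later stages, Stat5b read 0.146 RPM at 8 h, 4.21 at 13 h and 21.3 after 2 rounds. Stat5a read 1.28, 3.85 and 6.78 RPM and IgG 0.962, 1.33 and 1.04. The Stat5b rise at 13 h was 28.9-fold (4.88 to 1170), and a second rise of 5.06-fold (3.54 to 7.41) followed. At chr16:24132039-24132587 there were 0 Stat5b reads at 8 h, 33 at 13 h and 23 after 2 rounds (0, 3.65 and 3.01 RPM). The increase to 13 h was 8.36-fold if 8 h is set to a floor of 3 counts, and the interval of the ratio began at 6.425. IgG held 0.160, 0.266 and 1.04 RPM there. Stat5b after 2 rounds was 2.90 times IgG (1.15 to 8.70), which did not pass. This region differed from the one on chromosome 9 in that its level after 2 rounds was not above that of 13 h. Likewise at chr19:53892297-53892733 the Stat5b levels were 0.146, 4.10 and 2.61 RPM, 28.1-fold higher at 13 h than at 8 h (4.74 to 1140). At chr2:61109649-61110835 they were 0.146, 3.88 and 10.2 RPM, and Stat5a there held 1.28, 4.09 and 5.42 RPM although a Stat5a peak was listed only after 2 rounds.

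Stat5a rises at 13 h that passed on distinct starts were limited to 2 regions, at low depth. At chr14:56352171-56353035, Stat5a had 0 reads at 8 h, 33 at 13 h and 5 after 2 rounds (0, 3.97 and 0.753 RPM). The level at 13 h was 4.14-fold higher when the same floor of 3 counts stands for 8 h. The interval of the ratio began at 3.18, or at 2.045 on distinct starts. Stat5b there held 1.60, 1.99 and 3.27 RPM, and its ratio at the step at which Stat5a was called was 1.24 (0.556 to 2.91). At chr19:24543906-24544951, Stat5a had 0, 32 and 13 reads (0, 3.85 and 1.96 RPM), 4.02-fold higher at 13 h with 8 h at the floor. The interval began at 3.08, or at 2.045 on distinct starts, and Stat5b stood at 2.19, 3.99 and 8.10 RPM. In neither region was the Stat5a level of 13 h reached again after 2 rounds.

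From 13 h to 2 rounds, Stat5b was higher in 1441 regions (19.7%) and lower in 3, against 25.1% and 0.637% of all joined regions. Stat5a was higher in 449 (6.13%) and lower in 77 (1.05%), against 7.84% and 3.97%. IgG was higher in 80 (1.09%) and lower in 7 (0.0956%), against 0.644% and 0.0914%. Both antibodies were called higher in 302 regions, Stat5b alone in 1128, and Stat5a was lower while Stat5b was higher in 11. At this step too, joint calls were not counted over all joined regions, and nothing is read from their number. The median ratio was 2.12 for Stat5b and 1.14 for Stat5a, below the 2.58 and 1.25 of all joined regions, of which 48.0% have peaks after 2 rounds only. Scaled to those medians, Stat5b was higher in 146 regions and lower in 130 (3.8% and 5.53% of all), and Stat5a was higher in 262 and lower in 164 (4.84% and 5.97%). Most Stat5b calls of the second step were thus relative to all reads and not to the other joined regions. With repeated starts counted as 1, Stat5b was higher in 896 and lower in 0 (14.8% and 0.0663% of all), and Stat5a was higher in 203 and lower in 5 (2.56% and 0.0594%).

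Few regions passed the Stat5b call at both steps. Of the 885 regions called higher at 13 h, 145 were called higher again after 2 rounds, 740 did not pass and 0 were lower. A further 1296 were called higher only at the second step, and 5140 passed at neither step. A high 13 h count raises the first ratio and lowers the second, so these counts share the 13 h library and are given side by side only. Calls over both steps were not counted for all joined regions, so nothing particular to these regions is read from their number. Over the whole course from 8 h to 2 rounds, Stat5b was higher in 4596 regions (62.8%) and lower in 0, against 43.4% and 0.215% of all, and 2585 of the higher ones passed at neither single step. Scaled to the median of all joined regions, Stat5b was higher in 251 and lower in 29 (1.84% and 4.54% of all). Stat5a was higher in 449 (6.13%) and lower in 27 (0.369%), against 3.73% and 1.91%.

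The 10 strongest regions, ranked by the mean of Stat5a and Stat5b above IgG over the later stages, had their highest levels of both antibodies after 2 rounds. Their median at 13 h, 6.03 RPM of Stat5b and 4.75 of Stat5a, was above the 90th percentile of the whole set (5.20 and 3.73). The ranking uses the 13 h levels too, so it favours this. At 8 h their Stat5b median was 2.19 RPM against 1.02 of the set. Their 8 h medians of Stat5a (1.60 RPM) and IgG (0.641) were those of the set. RPM is not scaled for width, and the 10 were 818 to 2759 bp wide against a median of 708 bp in the set. Over these 10, Stat5b ranged from 0.437 to 5.39 RPM at 8 h, from 0.886 to 12.2 at 13 h and from 38.4 to 78.6 after 2 rounds. Stat5a ranged from 0.320 to 6.71, from 1.32 to 7.58 and from 10.2 to 34.5 RPM, and IgG never exceeded 5.01. The Stat5b levels after 2 rounds lay above all earlier ones without overlap, which the ranking favours, since it uses those levels. From 13 h to 2 rounds Stat5b was called higher in all 10 and Stat5a in 8, while from 8 h to 13 h Stat5b was called in 3 and Stat5a in 0.

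**Figure D5:**
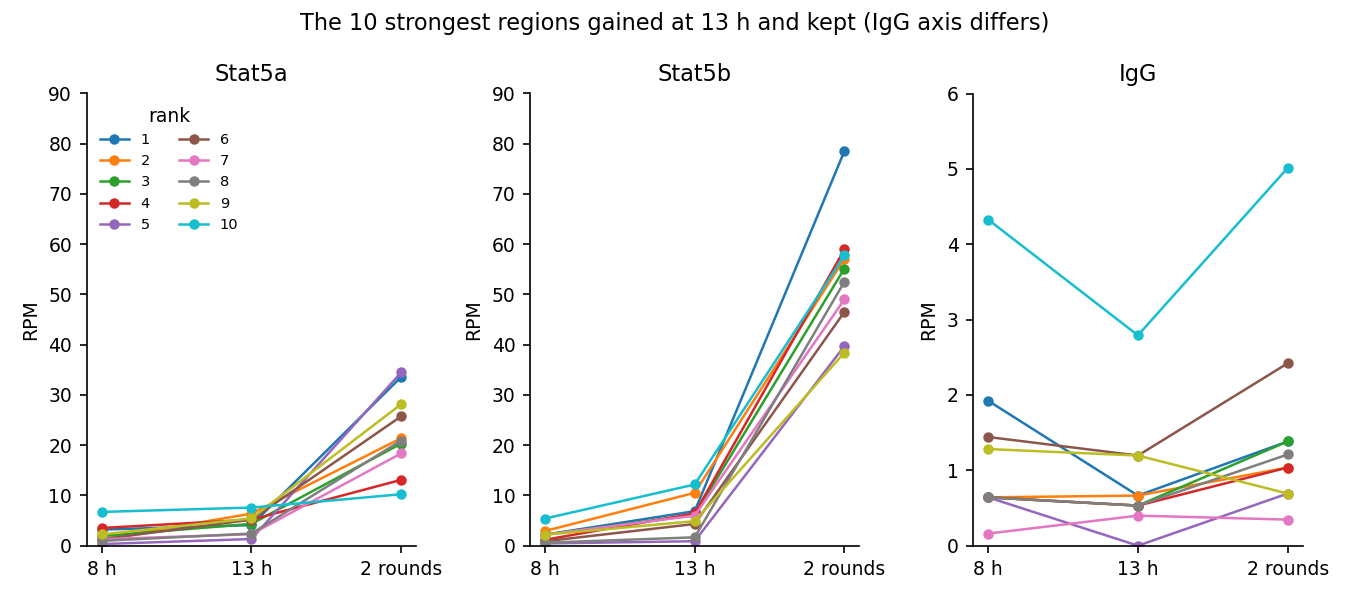
RPM (y axis) at the 3 stages (x axis) in the 10 strongest regions, 1 line per region in order of rank, for Stat5a, Stat5b and IgG; the IgG axis is expanded. Stat5b after 2 rounds sits between 38.4 and 78.6 RPM, above all values of the earlier stages.

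The strongest of them lay at chr1:192823499-192825507. At the 3 stages it held 2.19, 6.87 and 78.6 RPM of Stat5b, 3.20, 4.09 and 33.6 RPM of Stat5a, and 1.92, 0.665 and 1.38 RPM of IgG. The rise from 13 h to 2 rounds was 11.4-fold (8.80 to 15.1) for Stat5b and 8.21-fold (5.70 to 12.1) for Stat5a, so both antibodies were called higher at the later step. The next, at chr4:8952880-8954266, held Stat5b levels of 2.91, 10.5 and 57.1 RPM, Stat5a levels of 1.28, 6.38 and 21.4 and IgG levels of 0.641, 0.665 and 1.04. This was 1 of the 3 with a called Stat5b rise already at 13 h, 3.61-fold (2.21 to 6.17), followed by 5.43-fold (4.34 to 6.85). The third, at chr11:53493981-53495240, held 2.19, 6.09 and 55.2 RPM of Stat5b and 1.92, 4.33 and 20.3 RPM of Stat5a, with IgG at 0.641, 0.532 and 1.38. The region lies 2402 bp from one with peaks at all 3 stages. The fourth, at chr2:168182625-168183839, had 1.17, 6.42 and 58.9 RPM of Stat5b and 3.52, 5.18 and 13.1 of Stat5a. Its Stat5b rise was 5.51-fold (2.62 to 13.4) at the first step and 9.18-fold (6.97 to 12.3) at the second, while the Stat5a interval of the second step, 1.74 to 3.74, did not pass.

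The region at chr15:58947950-58948767 had the lowest early levels of the 10. Its Stat5a levels were 0.320, 1.32 and 34.5 RPM, its Stat5b levels 0.437, 0.886 and 39.7, and its IgG levels 0.641, 0 and 0.692. At 13 h it held 11 Stat5a and 8 Stat5b reads, and only the Stat5a list had a peak. The later rise was 26.0-fold (14.3 to 52.9) for Stat5a and 44.9-fold (22.5 to 105) for Stat5b, and the ratio of Stat5b to Stat5a after 2 rounds was 1.15 (0.968 to 1.37). At chr11:60935982-60936979 the early levels were likewise low, with Stat5b at 0.583, 1.66 and 52.5 RPM, a rise of 31.6-fold (19.0 to 57.1), and Stat5a at 0.959, 2.41 and 20.9. At chr6:108625024-108627782 the early levels were the highest of the 10, with Stat5b at 5.39, 12.2 and 57.8 RPM and Stat5a at 6.71, 7.58 and 10.2. This was 1 of 2 among the 10 in which Stat5a was not called higher after 2 rounds, at 1.35-fold (0.944 to 1.93), and it had the highest IgG levels of the 10, 4.33, 2.79 and 5.01 RPM.

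Outside the 10, the largest second-step rises were in regions with very few reads at 13 h. At chr15:72827148-72828273 the Stat5b levels were 0.437, 0.332 and 24.4 RPM (3, 3 and 187 reads) and the Stat5a levels 0.639, 1.57 and 12.4. The Stat5b ratio was 73.6 (24.8 to 360), and the 13 h peak of this region was of Stat5a, with 13 reads. At chr7:46899355-46900142 the Stat5b reads gave 0.291, 0.554 and 30.3 RPM, a 54.8-fold rise (23.1 to 170), and those of Stat5a 2.56, 0.963 and 8.13. At chr3:133695633-133696204, Stat5b went from 0 reads at 8 h and 13 h to 33 after 2 rounds. This was 13.0-fold higher with 13 h at the floor, and the interval of the ratio began at 9.98. Each of the 5 largest Stat5b rises of this step, these included, was in a region with a Stat5a peak and no Stat5b peak at 13 h. Ranking by this ratio favours regions with few Stat5b reads at 13 h. A region without a Stat5b peak at 13 h must have a Stat5a peak by the rule, so nothing is read from this. For Stat5a, the region at chr16:50708055-50708662 stood at 0, 0.241 and 11.3 RPM, a ratio of 46.9 (12.5 to 394.5), with Stat5b at 0.146, 1.99 and 9.80. Its 13 h peak was of Stat5b alone. These regions qualify through a 13 h peak of one antibody at which the other had few or no reads. The antibody with the peak was not always called above IgG at 13 h. At chr7:46899355-46900142, Stat5a held 8 reads and IgG 5, a ratio of 1.45 (0.418 to 5.63). Stat5a over IgG did not pass at chr15:72827148-72828273 or chr3:133695633-133696204 either. At chr16:50708055-50708662 Stat5b over IgG passed, with an interval that began at 2.368.

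Only 2 regions had a Stat5a loss after 2 rounds that passed on distinct starts with at least 30 reads. At chr4:134380704-134381321, Stat5a had 5, 37 and 0 reads (1.60, 4.45 and 0 RPM), while Stat5b stood at 1.31, 3.10 and 3.27 RPM. At chr10:66907487-66908116, Stat5a had 2, 30 and 0 reads, and Stat5b stood at 0.583, 1.11 and 4.05 RPM. The upper bound of the Stat5a ratio was 0.131 and 0.164 in these regions. Both met the rule through a Stat5b peak after 2 rounds. No Stat5b loss met the same conditions.

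Stat5b was called higher than Stat5a in more regions at each later stage. At 8 h, Stat5b was called higher than Stat5a in 2 regions (0.0273%) and lower in 130 (1.77%), against 0.048% and 3.8% of all joined regions. At 13 h it was higher in 223 (3.04%) and lower in 42 (0.573%), against 2.07% and 5.33%. After 2 rounds it was higher in 1905 (26.0%) and lower in 4, against 17.2% and 0.487%. The ratio of Stat5b to Stat5a RPM summed over the regions was 0.676, 1.40 and 2.45 at the 3 stages. In regions with peaks at all 3 stages it was 0.458, 1.39 and 2.01, so the same order was seen there. A ratio of 2 antibodies within a stage is not a ratio of bound molecules. Scaled to the median of all joined regions at each stage, Stat5b was higher in 67 regions and lower in 19 at 8 h (0.647% and 0.603% of all), higher in 91 and lower in 81 at 13 h (1.01% and 7.29%), and higher in 80 and lower in 100 after 2 rounds (0.667% and 3.44%). On that scale the counts of higher regions did not follow the order of the stages.

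The 5 regions with the largest ratio of Stat5b to Stat5a after 2 rounds held no Stat5a reads at that stage, but some before. A region with 0 Stat5a reads has an infinite ratio and ranks first, so this absence follows from the ranking. At chr4:43046368-43047181 the 3 stages gave 1.60, 4.43 and 6.93 RPM of Stat5b, 2.56, 2.41 and 0 of Stat5a, and 1.28, 0.532 and 1.38 of IgG. With 53 Stat5b and 0 Stat5a reads, Stat5b was 15.3-fold higher after 2 rounds with Stat5a at the floor of 3 counts. The interval of the ratio began at 12.0. Stat5b at chr8:87097679-87098409 read 0.874, 4.21 and 6.27 RPM and Stat5a 0.959, 2.05 and 0. The ratio after 2 rounds was 13.9 with Stat5a at the floor, and its interval without the floor began at 10.9. The opposite was seen in 1 region that passed also on distinct starts, at chr16:75748587-75748978. Its Stat5a levels were 3.84, 1.93 and 3.46 RPM and its Stat5b levels 0.729, 1.99 and 0, with 23 Stat5a and 0 Stat5b reads after 2 rounds.

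Across the 7318 regions, levels were compared between libraries as a description. Spearman correlations of RPM per kb, which are across regions and not replicates, were 0.288 between Stat5b at 8 h and 13 h, 0.176 between 13 h and 2 rounds and 0.0687 between 8 h and 2 rounds. For Stat5a they were 0.183, 0.177 and 0.139, and for IgG 0.134, 0.160 and 0.143. Stat5a and Stat5b correlated at 0.248 at 8 h, 0.136 at 13 h and 0.446 after 2 rounds, while Stat5b and IgG correlated at 0.222, 0.226 and 0.181. All these points share the width of the region and the libraries, and most counts are low, so no finding is drawn from these values. Split into 4 groups of equal size by Stat5b density after 2 rounds, the groups had median Stat5b densities between 1.34 and 1.58 RPM per kb at 8 h and between 3.39 and 4.13 at 13 h. After 2 rounds, the stage used for the split, the highest group stood at 12.4 RPM per kb and the lowest at 5.10.

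The densest spot within a region, taken from distinct starts moved 75 bp downstream, was compared between libraries. Peaks of the later stages overlapped by a median of 324 bp in these regions, so the rule favours spots that lie near each other. For Stat5b at 13 h and after 2 rounds the spots lay a median of 60.5 bp apart, and within 50 bp in 44.5% of the 5752 regions with at least 10 distinct starts in both. For Stat5a the median distance was 88.5 bp, and 35.6% lay within 50 bp (2232 regions). Between Stat5a and Stat5b it was 85.0 bp at 13 h and 57.5 bp after 2 rounds. From Stat5b at 8 h, where no peak was listed, to Stat5b after 2 rounds it was 114 bp in 1623 regions (median width 1036 bp), and from IgG after 2 rounds 199 bp in 316 regions (median width 1332 bp). In regions with peaks at all 3 stages the Stat5b distance from 13 h to 2 rounds was 33.0 bp. Those regions have more reads, and the part of depth in the difference was not tested. Reads of the minus strand lay downstream of those of the plus strand by 117 bp for Stat5b at 13 h and 125 bp after 2 rounds, averaged over the regions, and by 112 and 99.9 bp for IgG, so the IgG libraries showed a like spacing.

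The share of reads without mismatch was higher in the regions than outside joined regions in 8 of the 9 libraries, all but IgG at 8 h. Reads without mismatch made up 67.5% of Stat5b reads in the regions after 2 rounds and 60.9% outside joined regions, and for IgG of that stage 65.6% and 58.0%. At 13 h the shares were 62.0% and 56.2% for Stat5b and 60.6% and 53.5% for IgG. At 8 h they were 59.3% and 54.6% for Stat5a and 58.8% and 58.0% for Stat5b, and for IgG the order was the opposite, 51.4% and 54.8%. Of the ChIP reads in the regions, distinct starts made up 56.9% at the lowest, for Stat5a after 2 rounds, and 79.6% at the highest, for Stat5b at 8 h. The part of these differences in the levels was not tested.

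The regions were spread over all chromosomes but Y. Their density ranged from 2.03 per Mb on chromosome 14 to 4.77 on chromosome 11 among the autosomes, taking the position of the last read as the length, and was 0.628 per Mb on the X chromosome (104 regions). The X chromosome also had fewer control reads, with 1731 IgG reads per Mb after 2 rounds against between 1974 and 2912 on the autosomes, a smaller gap than that in regions. The highest of these is chromosome 16, which holds the heaped start named above, and the next is chromosome 11 at 2451. Among all joined regions the share that met the rule was between 14.7% (chromosome 12) and 18.1% (chromosome 8) on autosomes and 12.0% on X. The nearest other region of the set lay a median of 31.6 kb away, and 1808 (24.7%) had one within 10 kb. A region with peaks at all 3 stages lay within 10 kb of 1206 of them (16.5%), against 10.5% of regions seen at 13 h only, 12.1% of those after 2 rounds only and 31.2% of the regions of all 3 stages themselves. Members near such a region and the others differed little in density, at 9.35 and 8.93 RPM per kb of Stat5b after 2 rounds and 2.64 and 2.28 of Stat5a at 8 h. These shares are descriptions, since no test of position was made.

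Joined where less than 10 kb apart, the regions formed 6329 groups, of which 5516 held a single region and 6 held 5 or more. A group of 6 regions lay at chr16:10682032-10702654, interleaved with 3 regions of all 3 stages, and its summed Stat5b level was 10.2, 24.9 and 61.8 RPM at the 3 stages. Its summed Stat5a level was 9.27, 15.3 and 21.1 RPM and that of IgG 4.17, 6.91 and 8.30, so IgG too had its highest value there after 2 rounds. The other group of 6, at chr16:19873942-19896763, held no other joined region and stood at 4.81, 16.6 and 30.1 RPM for Stat5b and 12.2, 10.7 and 19.3 for Stat5a. Groups of 5 lay at chr5:28718828-28731642, chr17:46965089-46979168, chr2:127005250-127028252 and chr13:30792955-30821497. The group on chromosome 5 had the largest late Stat5a level among these 4 relative to its early one, at 4.16, 9.75 and 23.5 RPM. The group on chromosome 17 differed from it, with Stat5a at 12.5, 13.0 and 9.49 RPM.

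By distance to an 8 h peak, the edge of the rule was thin for a few regions. An 8 h peak lay within 1000 bp of 350 of them (4.78%). The closest were 1, 1 and 4 bp away, beside the regions at chr5:72439964-72440400, chr7:28690811-28691822 and chr3:101732882-101733528. Their Stat5a levels at 8 h were 0, 1.28 and 2.88 RPM, and those at 13 h were 1.69, 2.29 and 1.69 RPM. Their Stat5b levels were 0.146, 0.583 and 1.46 RPM at 8 h and 0.664, 5.54 and 1.55 RPM at 13 h. Just outside the rule, the region at chr11:46304896-46305807 had an 8 h peak of Stat5a that overlapped its later peaks by 33 bp, and 4.48 RPM of Stat5a and 1.89 of Stat5b at 8 h. The next, at chr14:55229749-55230620 and chr2:166484552-166485256, had 8 h peaks of Stat5b that overlapped by 39 and 46 bp. Both held 2.04 RPM of Stat5b at 8 h, with Stat5a at 4.80 and 3.20 RPM. Windows of 200 bp were also called from the same number of distinct starts per library (2049650), with total reads, repeats and enrichment not matched. By these windows, 17 of the 7324 regions (0.232%) held a window of Stat5a at 8 h and 14 (0.191%) one of Stat5b, against 4.34% and 1.11% of all joined regions. At 13 h the counts were 151 and 448 (2.27% and 4.49% of all), and after 2 rounds 586 and 2537 (5.2% and 18.9% of all). Windows at both later stages and none at 8 h, in either antibody, were found in only 316 of the 7324 regions, and in 1.71% of all joined regions. In regions of all 3 stages, 40.3% held a Stat5a window at 8 h and 11.3% a Stat5b window.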

How the data were processed

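Stat5a, Stat5b and IgG ChIP-seq libraries (9, from 22 lanes per the labels) of mouse CD4+ T cells at the 3 stages of Th2 differentiation were used. The authors deposited per library a list of mapped reads (start, end, mismatch class, strand; mm8, 1 line per read, not normalized), and per ChIP library a list of peaks (start and end, no score). No label or header states the aligner, peak caller, threshold or use of IgG (not given in the sources used here).

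Depth was 3128114 to 9031579 nuclear reads. A read was counted where its 5' end fell in a region, with the starts of 24 bp reads moved by 1 bp upstream: in Stat5a at 13 h, 14.3% of 25 bp starts had a 24 bp start 1 bp further on, against 0.643% or less in the others. Ratios carry exact conditional 95% intervals, and no p-value is given. Heaped regions had over 50% of at least 20 reads at 1 start and strand in a library. Windows of 200 bp were called where the Poisson probability fell under 1e-06, given the IgG rate of its block of 5 windows or the genome-wide rate, whichever was larger. Other overlaps, lists, scalings, read lengths and call rules were tried, with effects in the closing section. Calls were tested on simulated data with known folds. Named regions follow a fixed rule on members without heaps (the 10 strongest above IgG; the 5 largest called changes per antibody and direction; the 5 with most reads above IgG at 8 h; the largest groups; the largest differences between antibodies), of which the text gives examples, and those nearest to an 8 h peak. The members, lists and rules were chosen with earlier results of these data known. Counting used Python 3.11.15 with numpy 2.4.6 and pandas 2.3.3, intervals used scipy 1.17.1, and plots used matplotlib 3.10.9.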

Additional observations from a re-analysis of the deposited data

How the results depend on the processing

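The number of regions stayed between 5236 and 7352 under another overlap, gap, distance to 8 h peaks, same antibody, Stat5b lists alone, heaps left out or no 8 h window. It was 1401 with the Stat5a lists alone, 3367 with the upper 50% of the later lists by reads and, added after the data were seen, 316 with windows called at both later stages and none at 8 h on distinct starts. A like number need not mean the same regions. With the Stat5b lists alone the number was 7301, though 1552 of the regions described had no Stat5b peak at 13 h. How many regions the settings share was not counted. Counts of regions called higher depended on repeated starts, scaling, read length and the call rule, and the causes were not tested.

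With each start counted once, the counts from 8 h to 13 h were 2 for Stat5a (63 in the main setting) and 207 for Stat5b (885). From 13 h to 2 rounds they were 203 (449) and 896 (1441), and from 8 h to 2 rounds 162 for Stat5a (449). For Stat5b over Stat5a they were 0 (2), 20 (223) and 991 (1905) at the 3 stages. Scaling to the median ratio of all joined regions gave 119 and 66 from 8 h to 13 h for Stat5a and Stat5b, and 262 and 146 from 13 h to 2 rounds. It gave 251 for Stat5b from 8 h to 2 rounds (4596), and 67, 91 and 80 for Stat5b over Stat5a, with 19, 81 and 100 lower. The 25 bp reads alone gave 110 and 274 for Stat5a at the 2 steps, and 111 for Stat5b over Stat5a at 13 h. Intervals wholly above 1 gave 730 and 4038 from 8 h to 13 h, 1595 and 4885 from 13 h to 2 rounds, 1496 for Stat5a from 8 h to 2 rounds, and 92, 2184 and 5485 for Stat5b over Stat5a. Scaling by reads outside regions, moving reads 75 bp downstream and leaving out heaps kept every count of higher regions within 1.5 times.

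Stat5a at 8 h is the library with the fewest mapped reads, and the part of depth in its counts was not set against the other choices. No paired analysis was possible because each group has 1 library.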
